A study of Mus musculus with 18 samples.

Results

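The mRNAs of 65 protein-coding genes for translation initiation and elongation factors were followed in cultured mouse cortical astrocytes. They are all protein-coding genes whose symbol begins with Eif or Eef and a number, out of 51912 genes counted, so that the subunits of each factor, the eIF2 kinases, the 4E-binding proteins and a few enzymes that modify the factors were all included. All 65 had at least 10 read pairs over the 18 libraries and were tested with 24495 genes in all, and 62 of them reached a mean of 1 CPM (read pairs of a gene per unit of library size, by TMM) in IP control libraries. The 3 others were *Eif4e1b* with 24 read pairs, *Eif4ebp3* with 35 and *Eif3j2* with 589 in total, and none of these was called in any comparison, which at this depth does not show that they were alike.

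The cultures were made from cortices of Aldh1l1-EGFP/Rpl10a transgenic pups (line JD130Htz, on a mixed B6 and FVB background) at postnatal day 0, males and females in equal number, grown for 14 days, replated, and 6 days later kept without serum for 24 h. Dishes then received serum-free medium with 50 mM ethanol or without it (control) for 24 h. In translating ribosome affinity purification (TRAP), an antibody to EGFP pulls down ribosomes that carry the tagged ribosomal protein RPL10A, and the transgene is driven by the promoter of *Aldh1l1*, an astrocyte gene. IP libraries therefore hold RNA that came down with tagged ribosomes, and input libraries hold RNA of the cleared lysate before the pull-down, from tagged and untagged cells. Every dish in the study, controls included, carried the transgene and went through the serum-free day. IP libraries came from 6 control and 6 ethanol dishes, and input libraries from 3 of the same control and 3 of the same ethanol dishes (replicates 4 to 6 of each). Replicates are separate dishes, and whether they were seeded from separate litters is not given in the sources used here, so the p-values measure the spread between dishes.

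The libraries held 74239854 to 132810705 read pairs counted on genes, and counts of replicates differed by more than sampling noise in every pair (smallest chi-square per degree of freedom 4.06). The 65 genes took 2.23 to 2.30% of these pairs in input and 1.75 to 1.82% in IP. Of 10 astrocyte markers 9 were higher in IP than in input, among them *Aldh1l1* itself (log2 fold change 1.05 ± 0.022, adjusted p = 5.45e-51), while 7 of 8 microglia markers were lower, with a summed level of 89.7 to 107 CPM in input and 24.7 to 31.6 CPM in IP. Of the neuronal markers 5 of 9 were higher in IP and 2 lower, with a summed 169 to 173 CPM in input control and 215 to 231 CPM in IP control. *Stmn2* and *Map2* made up most of these sums, and the 2 lower markers each had a mean below 1 CPM in both fractions. Of the fibroblast markers 2 of 5 were higher and 3 lower, with a median log2 fold change of -1.55. The part of these other cells in the values of the translation factors was not tested. In bulk libraries, fewer cells of a type and less RNA per cell cannot be told apart. *Rpl10a*, whose tagged copy is carried by the transgene, was at 245 ± 9.10 CPM in IP and 354 ± 11.4 CPM in input (SD, n = 12 and 6).

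Translation begins when the initiator tRNA is brought to the small ribosomal subunit by eIF2, whose nucleotide is exchanged by eIF2B, and when the cap of the mRNA is bound by eIF4F (the cap-binding protein eIF4E, the scaffold eIF4G and the RNA helicase eIF4A). The large complex eIF3 holds these parts on the small subunit. Kinases that phosphorylate eIF2 lower initiation, and 4E-binding proteins lower it by taking eIF4E away from eIF4G. During elongation, eEF1A delivers the aminoacyl-tRNAs, the eEF1B subunits recharge it, and eEF2 moves the ribosome along. Many mRNAs of ribosomal proteins and of some of these factors begin with a run of pyrimidines, the 5′ terminal oligopyrimidine tract (TOP), and their loading onto ribosomes is known to follow the activity of the kinase mTORC1.

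The elongation factor genes *Eef1a1* and *Eef2* had the most abundant of the 65 mRNAs. In IP control libraries, *Eef1a1* reached 2753 ± 43.5 CPM per kilobase of its longest annotated transcript (SD, n = 6) and *Eef2* 1035 ± 31.6. The next members followed at a distance. *Eif5a*, whose protein helps the ribosome through difficult peptide bonds, was at 262 ± 11.2 and *Eif1*, which guards start codon choice, at 257 ± 6.08 CPM per kilobase, a difference smaller than the spread of *Eif5a*. Paralogs differed widely. The neuronal and muscle form *Eef1a2* was at 5.92 ± 0.286 CPM per kilobase, and *Eif5a2* at 3.88 ± 0.245. Read pairs that map to several places were left out when the reads were counted, so factors with close copies (*Eef1a1*, *Eif4a1* and *Eif4a2*, *Eif1a* and *Eif1ax*, *Eif2s3x* and *Eif2s3y*, *Eif5a*) are undercounted to a degree that is not known here. Over whole libraries the share of such read pairs was larger in input than in IP, so the degree may differ between the fractions.

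IP was compared with input to see which of these mRNAs were over- or underrepresented on tagged ribosomes. Of the 65 genes 49 differed, 24 higher and 25 lower in IP, beside 51% of all genes tested (25.2% higher and 25.8% lower). A gene was called when its Benjamini-Hochberg adjusted p was below 0.05 in edgeR's quasi-likelihood fit. The groups of libraries did not overlap for 32 of the 65 (13 higher and 19 lower), beside 25% of all genes (13.1% and 11.9%). Of all genes tested 13435 had at least 1 CPM, beside 62 of the 65 members, so these shares are not matched for level. The median log2 fold change was 0.020 over the 65 and -0.028 over all genes. The mRNAs of 9 members are well known to be TOP mRNAs (*Eef1a1*, *Eef1b2*, *Eef1d*, *Eef1g*, *Eef2*, *Eif3e*, *Eif3f*, *Eif3h* and *Eif4b*). This list was written from general knowledge but with earlier results of these data known, so its counts are a description. Of these 9 genes 8 were lower in IP and none higher, with a median of -0.61, whereas the other 56 members had 24 higher and 17 lower with a median of 0.036. The exception was *Eif4b*, at 0.040 ± 0.018, adjusted p = 0.0662.

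**Figure D1:**
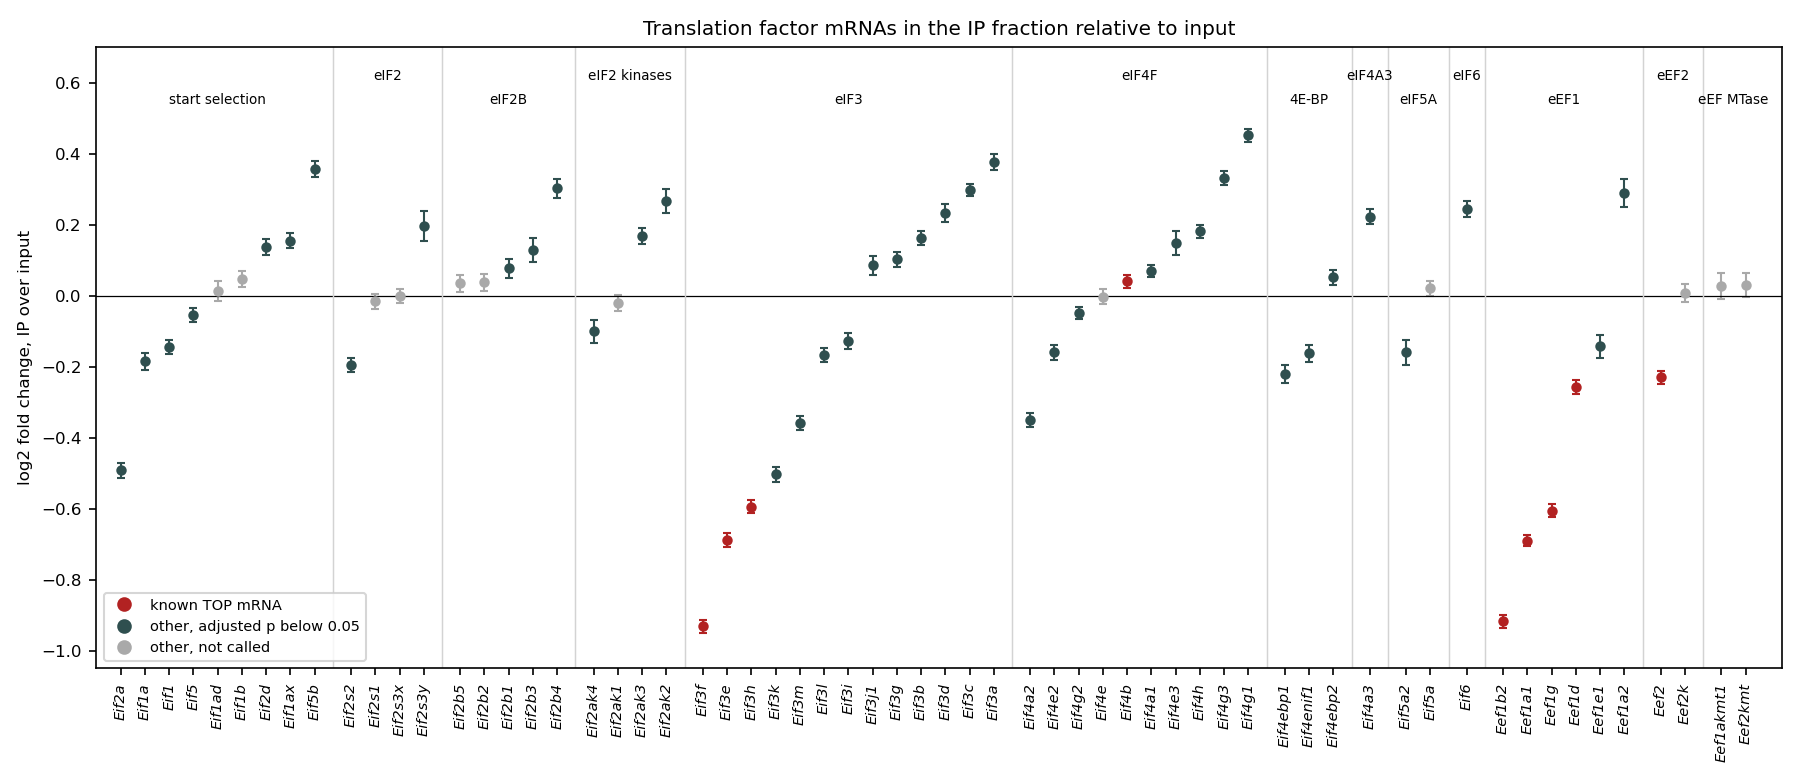
Log2 fold change of IP over input ± SE for the 62 members with at least 1 CPM, grouped by factor complex and ordered within each. Red points are the 9 known TOP mRNAs, of which 8 lie between -0.23 and -0.93 and *Eif4b* lies at 0.040, dark points are other members with an adjusted p below 0.05, and grey points were not called.

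The start of the mRNA was read for each member to see which annotated transcripts begin with such a tract. In the GENCODE M21 annotation of GRCm38, 7 of the 65 members (10.8%) had a protein-coding transcript whose first base is C and is followed by further pyrimidines to a run of at least 5, beside 5.15% of 16936 protein-coding genes tested. Of these 7, 5 were lower and 0 higher in IP, with a median of -0.35, and of the other 58 members 20 were lower and 24 higher with a median of 0.036. The first 30 bases are shown 5′ to 3′ for 6 of the transcripts because they carry the feature by which TOP mRNAs are named. Such a start stood in 1 of 14 coding transcripts of *Eef1d*, 1 of 6 of *Eif4a2* and 1 of 2 each of *Eif3m* and *Eif2s3x*. *Eif3f* and *Eif2s1* have 1 coding transcript each. Capitals mark the unbroken run of C and T from the first base, where it begins with C.
Eif3f (chr7:108934417-108934446, plus strand): CTCTTTCTCggcaagatggcttctccggcc
Eef1d (chr15:75909277-75909306, minus strand): CTCTCCTTTgcagtcctgagctcgcagttc
Eif3m (chr2:105017014-105017043, minus strand): CTTTTCCggtcggcgtgtttctggatcgga
Eif4a2 (chr16:23107758-23107787, plus strand): CTTTTCagtcgggcgctgagtgggttttcg
Eif2s1 (chr12:78861819-78861848, plus strand): CTCTTggttgactaaaacttaaagcgatca
Eif2s3x (chrX:94212622-94212651, minus strand): CTTTTCTCTCCgagcaagatggctgggggt
The 4 members that were highest in IP relative to input start as follows, with a run of at most 4.
Eif4g1 (chr16:20672723-20672752, plus strand): CTCCgccctctgcgccggtcacgtggggcg
Eif3a (chr19:60790614-60790643, minus strand): CCggctgggcgcgggcatctgctggcgagg
Eif5b (chr1:37998010-37998039, plus strand): acctggccggcggctctactggagacgctc
Eif4g3 (chr4:138004752-138004781, plus strand): Cagaaatagaacttgaacaagttcaacttc
Among the first 6, *Eif3f*, *Eef1d*, *Eif3m* and *Eif4a2* were lower in IP, while *Eif2s1* and *Eif2s3x* were at -0.016 and -0.00031 and were not called. Only 3 of the 9 known TOP mRNAs have such a start in the annotation. The annotated first base can differ from the one used in these cells, so no match says only that these letters are not at the annotated start.

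The largest difference was that of *Eif3f*, which encodes a peripheral subunit of eIF3. Its level was 374, 378 and 381 CPM in the input control libraries, 369, 371 and 376 in input ethanol, 189.5 to 202 CPM (median 194) in IP control and 195 to 202 CPM (median 199) in IP ethanol. All 12 IP libraries lay below all 6 input libraries, a change of -47.6% (log2 fold change -0.93 ± 0.018 (SE), adjusted p = 2.80e-54). *Eef1b2*, the catalytic eEF1B subunit, had 522, 522 and 534 CPM in input control, 492, 501 and 511 in input ethanol, 276 to 300.3 CPM (median 280.4) in IP control and 251 to 269.7 CPM (median 261) in IP ethanol (log2 fold change -0.92 ± 0.018 (SE), adjusted p = 1.19e-52). The fractions did not overlap here either.

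Most other eEF1 genes had the same direction. *Eef1a1*, the tRNA carrier itself, was at 7803, 7889.7 and 8083 CPM in input control, 7568, 7614 and 7960.5 in input ethanol, 4827 to 5025 CPM (median 4967) in IP control and 4555 to 4895 CPM (median 4777) in IP ethanol (log2 fold change -0.69 ± 0.017 (SE), adjusted p = 6.69e-48). *Eef1g*, a structural eEF1B subunit, had a log2 fold change of -0.61 ± 0.018, adjusted p = 3.47e-42, and *Eef1d*, the second exchange factor subunit, one of -0.26 ± 0.020, adjusted p = 2.34e-19. *Eef1e1*, a scaffold of the aminoacyl-tRNA synthetase complex despite its name, was lower by a smaller amount (-0.14 ± 0.032, adjusted p = 0.000105), a call lost with a GC and length correction (adjusted p = 0.252). The exception among the 6 eEF1 genes was *Eef1a2* (0.29 ± 0.039, adjusted p = 1.59e-09). The ratio of *Eef1a1* to *Eef1a2* per kilobase, which was not tested, was 933 ± 28.3 in input control and 466 ± 28.9 in IP control. *Eef2* was lower in IP too, with 3800.3, 3802 and 3866 CPM in input control against 3040.3 to 3323 CPM (median 3195) in IP control (log2 fold change -0.23 ± 0.018 (SE), adjusted p = 2.50e-18). Its kinase *Eef2k*, which slows elongation, was at 41.8 ± 1.36 CPM in input control and 41.6 ± 1.19 CPM in IP control (0.0071 ± 0.025, adjusted p = 0.843).

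The eIF3 subunits, whose proteins are needed in one complex, split between the fractions. Of 14 eIF3 genes 6 were higher and 7 lower in IP, and *Eif3j2* was not called. Higher were *Eif3a* (0.38), *Eif3c* (0.30), *Eif3d* (0.23), *Eif3b* (0.16), *Eif3g* (0.10) and *Eif3j1* (0.086). These log2 fold changes include the subunits of the yeast-like core, a, b, c, g and i, with *Eif3i* as the exception at -0.13. Lower were *Eif3f* (-0.93), *Eif3e* (-0.69), *Eif3h* (-0.60), *Eif3k* (-0.50), *Eif3m* (-0.36), *Eif3l* (-0.17) and *Eif3i*, so that e, f, h, k, l and m, which with a and c form the octamer of PCI and MPN domain proteins, were all on this side.

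Levels between subunits can be compared per kilobase. In input control the levels per kilobase of *Eif3h* and *Eif3f* were 241 ± 5.65 and 150.1 ± 1.35 CPM (SD, n = 3), and those of *Eif3a* and *Eif3c* 72.1 ± 1.03 and 109.6 ± 0.388. In IP control *Eif3h* and *Eif3f* were at 162 ± 2.90 and 77.3 ± 1.83 CPM per kilobase (SD, n = 6), and *Eif3a* and *Eif3c* at 95.2 ± 2.23 and 134 ± 0.795. *Eif3f* thus lay above *Eif3c* in input and below it in IP. Per library, *Eif3e* had 258, 263 and 271 CPM in input control, 263, 272 and 279.9 in input ethanol, 164.1 to 174 CPM (median 169) in IP control and 159 to 172 CPM (median 163.8) in IP ethanol. *Eif3a* had 364, 371 and 374 CPM in input control, 351, 355 and 357 in input ethanol, 474 to 502 CPM (median 490.0) in IP control and 423 to 495 CPM (median 440.3) in IP ethanol. For both genes the fractions did not overlap, and they moved in opposite directions (-0.69 ± 0.019, adjusted p = 1.74e-43 and 0.38 ± 0.023, adjusted p = 2.17e-19). *Eif3d* shares 43.3% of its exonic bases with an antisense gene, and the counts of 1 strand gave 2.42 times as many read pairs as the unstranded counts, in which shared pairs are left out. On that strand its log2 fold change was 0.17.

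**Figure D2:**
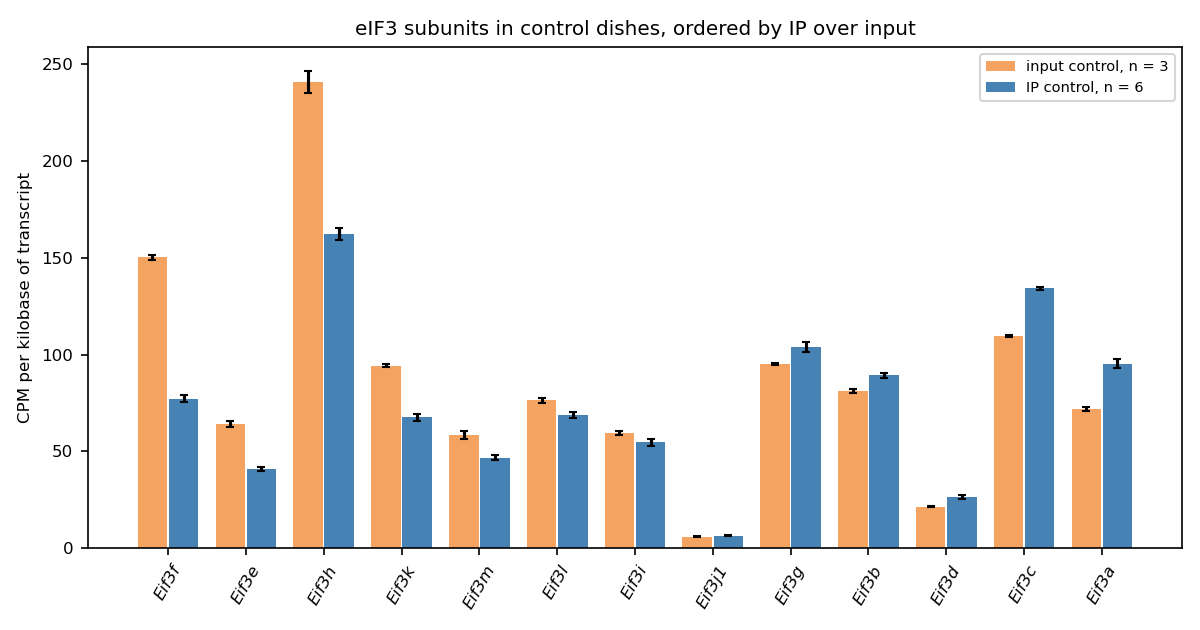
CPM per kilobase of the longest transcript for 13 eIF3 subunits (mean ± SD) in input control (n = 3, orange bars) and IP control (n = 6, blue bars), ordered from the lowest to the highest log2 fold change of IP over input. *Eif3f* stands at 150.1 in input and 77.3 in IP, and *Eif3a* at 72.1 and 95.2.

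Of the 65 members *Eif4g1*, the main eIF4F scaffold, had the highest log2 fold change. Its level was 435, 435 and 450.1 CPM in input control, 395, 396 and 409 in input ethanol, 582 to 615 CPM (median 600.4) in IP control and 539 to 555 CPM (median 548) in IP ethanol (log2 fold change 0.45 ± 0.018 (SE), adjusted p = 8.23e-35). The IP libraries all lay above the input libraries. *Eif4g3*, its paralog, was higher as well (0.33 ± 0.019, adjusted p = 1.03e-25), with 173, 174 and 174 CPM in input control and 211 to 222 CPM (median 215) in IP control. The cap-binding protein was not called with TMM scaling. *Eif4e* had 82.9 ± 2.41 CPM in input control and 83.7 ± 0.789 in IP control (-0.0035 ± 0.021, adjusted p = 0.911), and the related *Eif4e2*, which binds caps without recruiting eIF4G, was lower (-0.16 ± 0.021, adjusted p = 3.29e-10). With total counts in place of TMM, *Eif4e* was called lower (-0.054, adjusted p = 0.0245), as were *Eif2s1* (-0.067, adjusted p = 0.00640) and *Eif2ak1* (-0.073, adjusted p = 0.00434). The helicase paralogs diverged, with *Eif4a1* at 0.070 ± 0.018, adjusted p = 0.000536 (not called with total counts in place of TMM scaling, adjusted p = 0.388, or in ethanol dishes alone, adjusted p = 0.192) and *Eif4a2* at -0.35 ± 0.019, adjusted p = 2.28e-26. *Eif4a3*, a helicase of the exon junction complex, was higher in IP (0.22 ± 0.020, adjusted p = 1.22e-15), as was *Eif4h*, a helper of eIF4A (0.18 ± 0.018, adjusted p = 2.18e-14).

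Among the remaining initiation factors, *Eif5b*, the GTPase that joins the subunits, had 159, 163.5 and 165.9 CPM in input control and 201 to 222 CPM (median 207) in IP control (log2 fold change 0.36 ± 0.023 (SE), adjusted p = 1.85e-20). *Eif6*, which keeps the large subunit apart until it is ready, was higher in IP too (0.24 ± 0.022, adjusted p = 8.55e-16). *Eif2a*, an alternative initiator tRNA carrier and not a subunit of eIF2, was the lowest outside the TOP and eIF3 genes (-0.49 ± 0.021, adjusted p = 1.52e-32). All 5 eIF2B subunits had a positive log2 fold change, and 3 passed the test, led by *Eif2b4* (0.30 ± 0.027, adjusted p = 3.28e-16). Of the eIF2 subunits *Eif2s2* was lower (-0.20 ± 0.021, adjusted p = 4.99e-13), a call lost with a GC and length correction (-0.023, adjusted p = 0.33), whereas the phosphorylated subunit *Eif2s1* was at 75.2 ± 2.04 CPM in input control and 75.2 ± 1.45 in IP control.

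The eIF2 kinases respond to different stresses, and their mRNAs were distributed differently. *Eif2ak2* (PKR, activated by double-stranded RNA) was higher in IP (0.27 ± 0.033, adjusted p = 4.63e-07), and so was *Eif2ak3* (PERK, of the endoplasmic reticulum; 0.17 ± 0.023, adjusted p = 2.58e-09). *Eif2ak4* (GCN2, activated by uncharged tRNA) was lower (-0.10 ± 0.032, adjusted p = 0.00545), and *Eif2ak1* (HRI, the heme-regulated kinase) was not called (-0.022 ± 0.023, adjusted p = 0.459). When the 6 dishes with both fractions were fitted with a term for each dish, *Eif2ak4* was no longer called (-0.055, adjusted p = 0.189) and *Eif2ak1* was called lower (-0.065, adjusted p = 0.0132). Of the 4E-binding proteins, *Eif4ebp1* was lower in IP, at 47.3, 50.0 and 50.1 CPM in input control and 39.0 to 44.4 CPM (median 41.1) in IP control (-0.22 ± 0.026, adjusted p = 1.15e-11), as was *Eif4enif1*, which carries eIF4E into the nucleus (-0.16 ± 0.023, adjusted p = 4.84e-09). *Eif4ebp2*, the form best known in the brain, was slightly higher (0.051 ± 0.020, adjusted p = 0.0264), and that call was lost with the dish as a block (adjusted p = 0.132) and without any 1 of input ethanol replicates 4, 5 and 6 or IP ethanol replicate 1 (adjusted p of 0.0503 to 0.119), with total counts in place of TMM scaling and in control dishes alone (adjusted p = 0.840). *Eif4ebp3* had a mean of at most 0.0358 CPM in any group.

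GC content and length moved with these differences. Over the 62 members with at least 1 CPM, Spearman's rho between the log2 fold change and transcript length was 0.23 and that with GC content 0.32, against 0.18 and 0.15 over 13435 genes. These points share their libraries, so the values are a description. With a correction for both over all libraries, 42 of the 49 calls were kept, 5 were lost, 2 took the opposite direction and 9 were gained, so that 31 members were higher and 22 lower. The share of all genes called under this correction is not given here.

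The known TOP mRNAs kept 8 of 9 lower and 0 higher under this correction, with a median of -0.43, beside 14 lower and 31 higher of the other 56 with a median of 0.11. *Eif3f*, *Eef1b2*, *Eef1a1*, *Eif3e* and *Eef2* were at -0.91, -0.80, -0.57, -0.43 and -0.28. Of the 7 members with an annotated TOP-like start 5 were lower and 2 higher, with a median of -0.16, as *Eif3m* was at -0.070 and *Eif4a2* at -0.16, and *Eif2s1* and *Eif2s3x* were called higher (0.12, adjusted p = 8.06e-08 and 0.049, adjusted p = 0.0118).

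Other calls changed with the correction. Those of *Eif2s2* (-0.023, adjusted p = 0.33), *Eif1* (0.017, adjusted p = 0.396), *Eif1a* (-0.0024, adjusted p = 0.941), *Eif5a2* (-0.014, adjusted p = 0.75) and *Eef1e1* (-0.042, adjusted p = 0.252) were lost. *Eif5* went from -0.054 ± 0.019, adjusted p = 0.0136 to 0.037, adjusted p = 0.0365, and *Eif4ebp2* was called lower. *Eif5a* (0.14, adjusted p = 2.82e-12) and *Eif4e* were called higher and *Eef2k* lower. In all 9 members changed sign. Of the calls that were kept, 13 moved by more than 1.5 times, among them *Eif3g* from 0.10 to 0.28, *Eif4g3* to 0.21, *Eif4ebp1* to -0.13, *Eif2ak3* to 0.10 and *Eif3i* to -0.065. In control dishes alone and in ethanol dishes alone, 46 and 41 of the 65 genes were called, without the share of all genes beside them.

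Genes that work with these factors but carry other names also differed in both directions between IP and input. Of 20 initiation partners 9 were higher and 5 lower, and the smallest adjusted p belonged to *Tpt1* (-1.41 ± 0.018, adjusted p = 5.47e-64) and *Pabpc1*, the poly(A)-binding protein (-0.35 ± 0.017, adjusted p = 5.28e-29), both also known as TOP mRNAs, and to *Abcf2* (0.35 ± 0.020, adjusted p = 8.81e-26). Of 8 termination and recycling factors 6 were higher and 1 lower, among them *Gspt1*, the GTPase eRF3 (0.42 ± 0.020, adjusted p = 7.15e-30). Of 10 mitochondrial translation factors 7 were higher and 2 lower, led by *Gfm1*, the mitochondrial elongation factor G (0.39 ± 0.024, adjusted p = 4.25e-24). In the list of mTORC1 and S6 kinase genes 6 of 16 were higher and 7 lower, and *Rps6*, a ribosomal protein and TOP mRNA, had the smallest adjusted p (-1.03 ± 0.019, adjusted p = 4.42e-55). Of the 9 enzymes of hypusine and diphthamide synthesis, which modify eIF5A and eEF2, 5 were higher and 2 lower.

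Ethanol was compared with control within each fraction. In IP, 26 of the 65 genes differed, 7 upregulated and 19 downregulated by ethanol, beside 21.4% of all genes (11.9% upregulated and 9.48% downregulated). In input, 21 differed, 6 upregulated and 15 downregulated, beside 15% of all genes (7.21% and 7.78%). In the IP libraries limited to replicates 4 to 6, the dishes with an input library, 22 differed, 4 upregulated and 18 downregulated, beside 15.2% of all genes (7.45% and 7.72%). Of the members 29.2% were downregulated in IP, 23.1% in input and 27.7% in the limited libraries, each above the share of all genes, and 10.8, 9.23 and 6.15% upregulated. All genes tested include many with few read pairs, so their shares are not matched to the members in level. The part of level in these shares was not tested. Control and ethanol libraries did not overlap for 17 members in IP (3 higher and 14 lower), beside 9.96% of all genes (5.09% and 4.87%), and for 30 in input (6 and 24), beside 27.1% (14% and 13.1%). The median log2 fold change was -0.041 in IP and -0.042 in input, beside 0.0054 and -0.00092 over all genes. The changes were small. No called member with ethanol changed by more than 23.8% in either direction, and none exceeded a fold change of 1.2 by a test of that bound in either fraction.

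**Figure D3:**
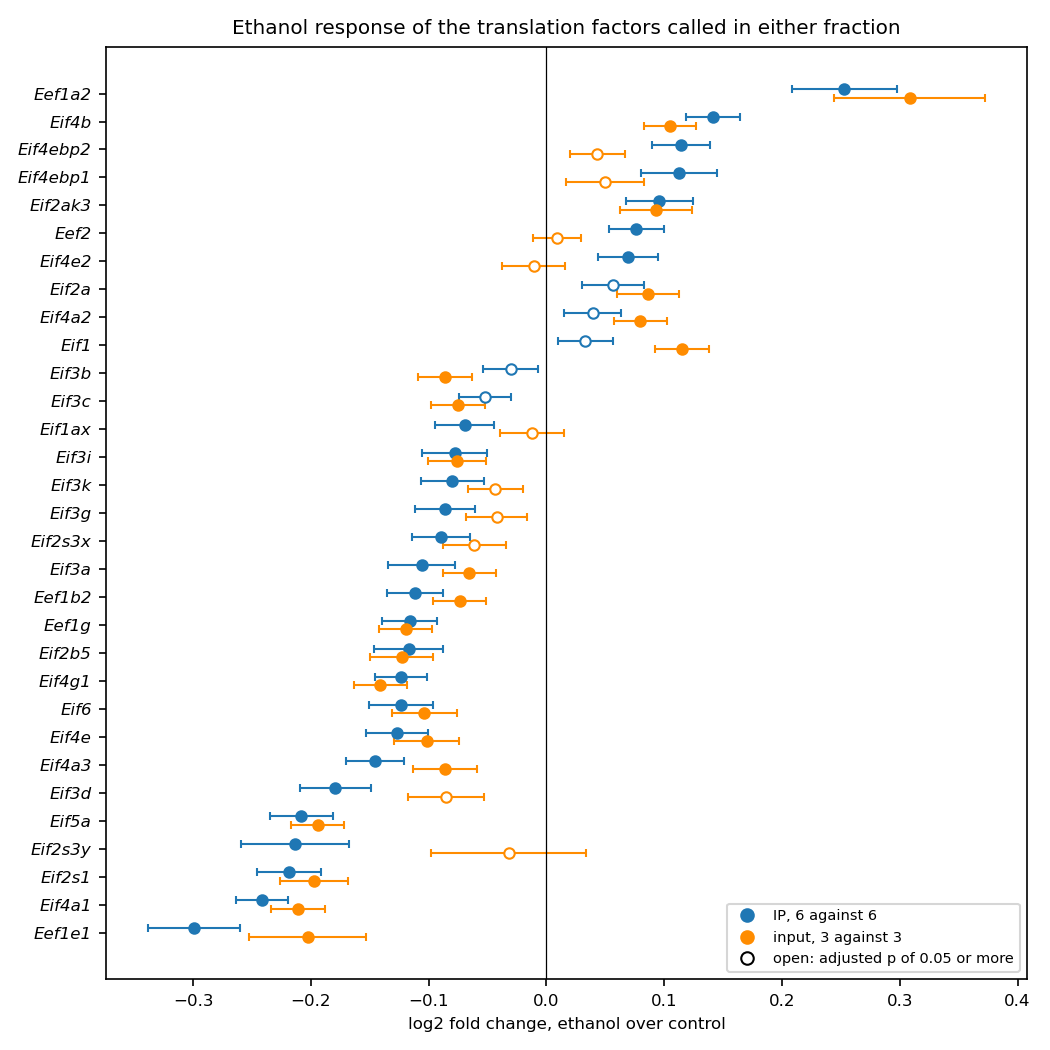
Log2 fold change with ethanol ± SE in IP (blue, 6 libraries against 6) and in input (orange, 3 against 3) for the 31 members called in at least 1 fraction. Filled points have an adjusted p below 0.05. Points of 13 members are filled on the left and of 3 members on the right in both fractions, from *Eef1e1* at -0.30 to *Eef1a2* at 0.25 in IP.

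In both fractions 13 members were downregulated (*Eef1b2*, *Eef1e1*, *Eef1g*, *Eif2b5*, *Eif2s1*, *Eif3a*, *Eif3i*, *Eif4a1*, *Eif4a3*, *Eif4e*, *Eif4g1*, *Eif5a* and *Eif6*) and 3 upregulated (*Eef1a2*, *Eif2ak3* and *Eif4b*). No member was called in opposite directions. The input and IP libraries of replicates 4 to 6 come from the same dishes, so these calls are not independent. Calls in 1 fraction alone were *Eef2*, *Eif4e2*, *Eif4ebp1* and *Eif4ebp2* up and *Eif1ax*, *Eif2s3x*, *Eif2s3y*, *Eif3d*, *Eif3g* and *Eif3k* down in IP, and *Eif1*, *Eif2a* and *Eif4a2* up and *Eif3b* and *Eif3c* down in input. The difference between the fractions was tested itself, as the interaction of ethanol and fraction. By edgeR none of the 65 passed, 4 had an unadjusted p below 0.05 (5.96% of all genes did), and DESeq2 called 0. With the dish as a block 0 passed and 6 had an unadjusted p below 0.05, and the share of all genes was not computed for that fit. In both edgeR fits the smallest adjusted p was that of *Eif1* (0.766, and 0.112 with the block). With the block and a GC and length correction it was again that of *Eif1* (0.0805), and 5 members had an unadjusted p below 0.05.

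In the eIF4F complex, *Eif4a1*, the main helicase, had 385, 386 and 389 CPM in input control and 328, 335 and 342 in input ethanol, and 404 to 419.7 CPM (median 412) in IP control and 341 to 353 CPM (median 346) in IP ethanol. No ethanol library reached the lowest control library of its fraction. *Eif4a1* fell by 15.4% in IP (log2 fold change -0.24 ± 0.022 (SE), adjusted p = 2.88e-13) and fell by 13.6% in input (log2 fold change -0.21 ± 0.023 (SE), adjusted p = 4.48e-18). Its paralog *Eif4a2* was not lower, with 0.039 ± 0.025, adjusted p = 0.295 in IP and 0.080 ± 0.022, adjusted p = 0.00405 in input. The ratio of *Eif4a1* to *Eif4a2* per kilobase was 0.825 ± 0.0355 in IP control and 0.679 ± 0.0297 in IP ethanol, and 0.618 ± 0.00167 and 0.506 ± 0.0157 in input. Annotated snoRNAs overlap the exons of both genes (at most 3.33% of the exonic bases each), and read pairs in the overlap are not counted for either gene.

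The cap-binding protein and the scaffold were downregulated in both fractions as well. *Eif4e* had 81.1, 82.0 and 85.6 CPM in input control and 76.8, 77.6 and 78.0 in input ethanol, and 83.0 to 85.0 CPM (median 83.6) in IP control and 72.8 to 79.9 CPM (median 76.2) in IP ethanol. The groups did not overlap in either fraction (-0.13 ± 0.026, adjusted p = 0.000147 in IP and -0.10 ± 0.028, adjusted p = 0.00307 in input), and without input control replicate 4 the call in input was lost (adjusted p = 0.0816). *Eif4g1* fell by 8.20% in IP and fell by 9.31% in input (-0.12 ± 0.022, adjusted p = 1.32e-05 and -0.14 ± 0.023, adjusted p = 2.45e-08). In contrast *Eif4b*, which stimulates the helicase, was upregulated, with 658, 681 and 683 CPM in input control and 716, 729 and 735 in input ethanol, and 649 to 704 CPM (median 693) in IP control and 736 to 790.4 CPM (median 746) in IP ethanol (0.14 ± 0.023, adjusted p = 2.55e-06 in IP and 0.10 ± 0.022, adjusted p = 4.95e-05 in input). *Eif4g2*, *Eif4g3* and *Eif4h* were not called in either fraction.

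Of the 4 genes grouped as 4E-binding proteins, *Eif4ebp1* and *Eif4ebp2* were upregulated in IP. In the IP libraries limited to replicates 4 to 6, 1 of the 4 was upregulated, *Eif4ebp1* (0.14). *Eif4ebp2* was not called in these libraries, but was with the replicate number as a block (0.076, adjusted p = 0.0410). *Eif4ebp1* had 39.0 to 44.4 CPM (median 41.1) in IP control and 42.7 to 46.7 CPM (median 44.6) in IP ethanol, 2 ranges that overlapped (log2 fold change 0.11 ± 0.032 (SE), adjusted p = 0.00623). In input it was at 47.3, 50.0 and 50.1 CPM in control and 49.6, 50.8 and 52.6 in ethanol (0.050 ± 0.033, adjusted p = 0.386). *Eif4ebp2* had 174 to 189 CPM (median 186) in IP control and 191 to 207 CPM (median 199) in IP ethanol, without overlap (log2 fold change 0.11 ± 0.024 (SE), adjusted p = 0.000252), and was at 0.043 ± 0.023, adjusted p = 0.242 in input. The sum of both per unit of *Eif4e*, each per kilobase, was 3.14 ± 0.0750 in IP control and 3.71 ± 0.151 in IP ethanol (SD, n = 6 each). In input it was 3.38 ± 0.172 and 3.74 ± 0.0912 (SD, n = 3 each). *Eif4enif1* and *Eif4ebp3* were not called. These are mRNA levels, and the binding of the proteins is set by phosphorylation, which was not measured.

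**Figure D4:**
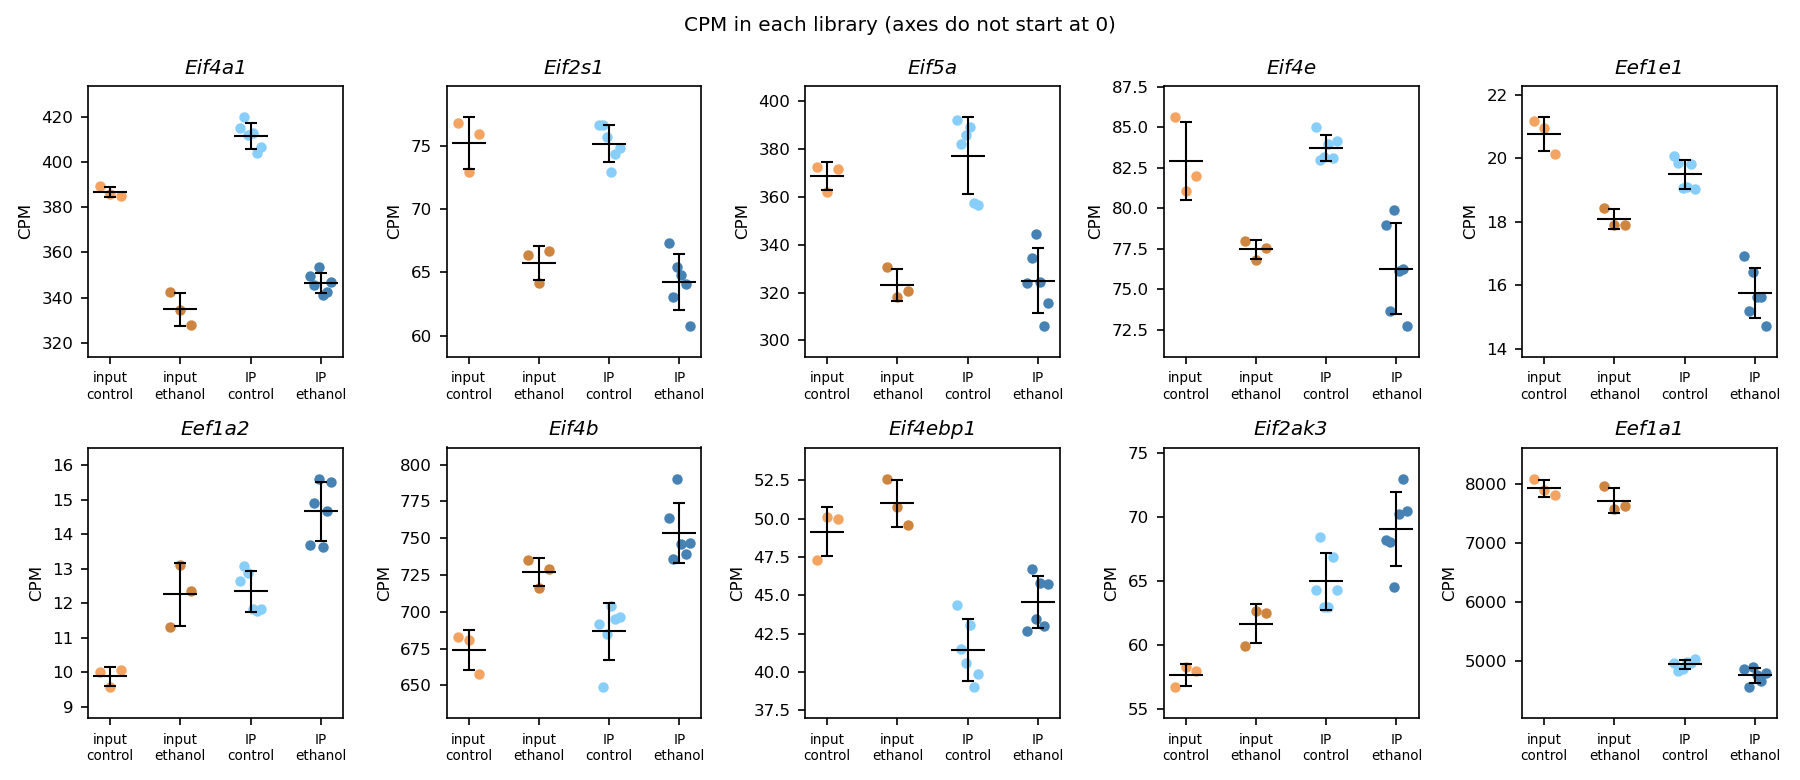
CPM of 10 members in each of the 18 libraries, by fraction and treatment. Points are libraries, the horizontal bar is the mean and the error bar the SD (n = 3 in input and 6 in IP), and each panel has its own axis that does not start at 0. For *Eif4a1*, *Eif2s1*, *Eif5a*, *Eif4e* and *Eef1e1* every ethanol library lies below every control library of its fraction, and for *Eef1a2* and *Eif4b* above.

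In the eIF2 complex, *Eif2s1*, which carries the phosphorylation site, had 72.9, 75.9 and 76.8 CPM in input control and 64.2, 66.4 and 66.7 in input ethanol, and 72.9 to 76.6 CPM (median 75.2) in IP control and 60.8 to 67.4 CPM (median 64.4) in IP ethanol. It fell by 14.1% in IP (log2 fold change -0.22 ± 0.027 (SE), adjusted p = 3.00e-09) and fell by 12.8% in input (log2 fold change -0.20 ± 0.029 (SE), adjusted p = 7.38e-10), with no overlap in either. All 4 eIF2 genes had negative values in both fractions, of which 3 passed the test in IP and 1 in input. The tRNA-binding subunit is encoded on both sex chromosomes. *Eif2s3x* was at -0.090 ± 0.025, adjusted p = 0.00509 and the Y-linked *Eif2s3y* at -0.21 ± 0.046, adjusted p = 0.000243 in IP, the latter with 11.8 to 14.3 CPM (median 12.9) in control and 10.3 to 11.6 CPM (median 11.2) in ethanol. In input *Eif2s3y* was at -0.032 ± 0.066, adjusted p = 0.846. As the cultures mix both sexes, other Y-linked genes, chosen after their values were seen, are given beside it. In IP *Ddx3y* was at -0.071, *Kdm5d* at 0.0088 and *Uty* at 0.16.

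In the exchange factor eIF2B all 5 subunits had negative log2 fold changes in both fractions, and only *Eif2b5*, which encodes the catalytic subunit, passed the test (-0.12 ± 0.029, adjusted p = 0.00206 in IP and -0.12 ± 0.027, adjusted p = 0.000113 in input). Its level was 91.5, 92.7 and 93.8 CPM in input control and 81.9, 85.1 and 89.0 in input ethanol, and 91.8 to 99.7 CPM (median 94.5) in IP control and 82.2 to 94.7 CPM (median 85.2) in IP ethanol, where the groups overlapped. In input 4 of the 5 subunits did not overlap between control and ethanol, beside 27.1% of all genes tested.

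Of the eIF2 kinases *Eif2ak3* alone was called. It had 56.7, 58.0 and 58.3 CPM in input control and 59.9, 62.5 and 62.7 in input ethanol, and 63.0 to 68.4 CPM (median 64.3) in IP control and 64.5 to 73.0 CPM (median 69.2) in IP ethanol (0.096 ± 0.029, adjusted p = 0.00952 in IP and 0.093 ± 0.031, adjusted p = 0.0218 in input). This call was lost in IP with a GC and length correction (0.065, adjusted p = 0.0519) and without control replicate 3 or 4 (adjusted p = 0.0527 and 0.0546) and in input without control replicate 4 or 6 or ethanol replicate 5 or 6 (adjusted p of 0.0599 to 0.118). *Eif2ak2* was at -0.073 ± 0.033, adjusted p = 0.12 in IP and -0.070 ± 0.026, adjusted p = 0.057 in input, *Eif2ak1* at -0.0043 ± 0.028, adjusted p = 0.949 and 0.014 ± 0.028, adjusted p = 0.841, and *Eif2ak4* at 0.050 ± 0.038, adjusted p = 0.419 and 0.058 ± 0.045, adjusted p = 0.484. The level of *Eif2ak2* was 103, 109.9 and 111 CPM in input control and 96.2, 103 and 110.5 in input ethanol, and 126 to 134 CPM (median 132) in IP control and 115 to 138 CPM (median 122) in IP ethanol. It was called lower in both fractions with a GC and length correction (-0.089 in IP and -0.086 in input, adjusted p = 0.0193 and 0.00645) and with the replicate number as a block (adjusted p = 0.0119 and 0.0323). It was also called lower in IP without the filter on low counts (-0.079, adjusted p = 0.0174), in input by the counts of 1 strand (-0.075, adjusted p = 0.0425), in IP without ethanol replicate 1 (-0.11, adjusted p = 0.00209) and in input without control replicate 5 or ethanol replicate 6 (-0.10 and -0.12, adjusted p = 0.0106 and 0.000351). Counts of 1 strand held 1.24 times as many read pairs for *Eif2ak1* and 1.16 times as many for *Eif2ak3*, whose genes overlap others, and the calls of both were the same there.

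Of 15 tested genes for eIF2 phosphatase subunits, kinase regulators and mRNAs that rise when eIF2 is phosphorylated, 5 were upregulated in IP and 7 in input, and 0 downregulated. Of all genes 11.9% were upregulated in IP and 7.21% in input. The rest of the list was not called, including other mRNAs of the kind that rise when eIF2 is phosphorylated. The smallest adjusted p were those of *Atf5* (0.46 ± 0.025, adjusted p = 5.97e-22 in IP) and *Ddit3* (0.25 ± 0.029, adjusted p = 3.61e-10), both transcription factors of the stress response, and *Sesn2* (0.15 ± 0.023, adjusted p = 7.34e-07).

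In eIF3, 5 of 14 genes were downregulated in IP, 4 in input and 0 upregulated. *Eif3a* and *Eif3i* passed the test in both fractions. *Eif3a* fell by 7.08% in IP (-0.11 ± 0.029, adjusted p = 0.00589) and fell by 4.44% in input (-0.065 ± 0.023, adjusted p = 0.0301). *Eif3d* had the largest decrease among eIF3 genes in IP, -0.18 ± 0.030, adjusted p = 5.54e-06, and -0.13 by the counts of 1 strand. The known TOP subunits were not called, with *Eif3e* at -0.031, *Eif3f* at 0.037 and *Eif3h* at -0.040 in IP. Of the 9 known TOP mRNAs, 2 were upregulated (*Eef2* and *Eif4b*) and 2 downregulated (*Eef1b2* and *Eef1g*) in IP, with a median of -0.031. Between the fractions 8 of these 9 had differed in 1 direction.

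*Eif5a* had 362, 372 and 373 CPM in input control and 318, 321 and 331 in input ethanol, and 356 to 392 CPM (median 384) in IP control and 306 to 345 CPM (median 324) in IP ethanol. It fell by 13.4% in IP (log2 fold change -0.21 ± 0.027 (SE), adjusted p = 3.32e-08) and fell by 12.6% in input (log2 fold change -0.19 ± 0.023 (SE), adjusted p = 2.69e-15), and the groups did not overlap. Its paralog *Eif5a2* was at 0.048 ± 0.043, adjusted p = 0.505 in IP. Of the 9 enzymes that place hypusine on eIF5A and diphthamide on eEF2, 5 were downregulated in IP, 3 in input and 0 upregulated, led by the first hypusine enzyme *Dhps* (-0.23 ± 0.040, adjusted p = 9.51e-06 in IP and -0.26 ± 0.049, adjusted p = 3.21e-06 in input), with *Dph6* (-0.21 in IP) and *Dph3* (-0.13 in IP). *Eif6* was downregulated as well, with 81.2, 82.7 and 83.3 CPM in input control and 75.3, 77.3 and 78.1 in input ethanol, and 95.1 to 102 CPM (median 99.3) in IP control and 83.4 to 94.8 CPM (median 90.7) in IP ethanol (-0.12 ± 0.027, adjusted p = 0.000361 in IP and -0.10 ± 0.028, adjusted p = 0.00243 in input).

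Among the start selection factors, *Eif1* was upregulated in input, from 360.0, 365 and 367 CPM in control to 390.1, 396 and 399.5 CPM in ethanol (log2 fold change 0.11 ± 0.023 (SE), adjusted p = 1.15e-05). In IP its groups overlapped, with 326 to 350.2 CPM (median 342) in control and 335 to 357 CPM (median 345) in ethanol (0.033 ± 0.023, adjusted p = 0.367). The interaction for *Eif1* did not pass, as given above.

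Among the members above 1 CPM, *Eef1a2* had the largest increase in both fractions, and *Eef1e1* the largest decrease in IP. *Eef1a2* had 9.57, 10.0 and 10.0 CPM in input control and 11.3, 12.4 and 13.1 in input ethanol, and 11.8 to 13.1 CPM (median 12.2) in IP control and 13.6 to 15.6 CPM (median 14.8) in IP ethanol. It rose by 19.2% in IP (log2 fold change 0.25 ± 0.044 (SE), adjusted p = 1.02e-05) and rose by 23.8% in input (log2 fold change 0.31 ± 0.064 (SE), adjusted p = 4.02e-05), with no overlap between the groups. *Eef1a2* is the eEF1A of mature neurons and muscle, and neuronal markers were measured beside it. Of 9 neuronal markers 0 were upregulated and 1 downregulated in IP, and 2 were upregulated and 1 downregulated in input, with summed levels of 215 to 231 CPM in IP control and 207 to 224 in IP ethanol. Most of this sum was *Stmn2* and *Map2*, with means of 108 and 84.0 CPM in IP control and 94.7 and 88.4 CPM in IP ethanol. *Eef1a1*, present at 466 ± 28.9 times the level of *Eef1a2* per kilobase in IP control, was not called (-0.048 ± 0.021, adjusted p = 0.108 in IP and -0.043 ± 0.020, adjusted p = 0.149 in input). In the IP libraries limited to replicates 4 to 6 it was lower (-0.075 ± 0.026, adjusted p = 0.0256), as it was in IP by DESeq2 (-0.056, adjusted p = 0.0181), in IP without ethanol replicate 3 (adjusted p = 0.0188) and in input without ethanol replicate 4 (adjusted p = 0.0185).

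*Eef1e1* had 20.2, 21.0 and 21.2 CPM in input control and 17.9, 17.9 and 18.4 in input ethanol, and 19.0 to 20.1 CPM (median 19.5) in IP control and 14.7 to 16.9 CPM (median 15.6) in IP ethanol. It fell by 18.7% in IP (log2 fold change -0.30 ± 0.039 (SE), adjusted p = 1.46e-08) and fell by 13.1% in input (log2 fold change -0.20 ± 0.050 (SE), adjusted p = 0.000748), and no ethanol library reached a control library. Of the eEF1B subunits *Eef1b2* and *Eef1g* were downregulated in both fractions (-0.11 and -0.12 in IP), and *Eef1d* was not called. *Eef2* was slightly upregulated in IP, with 3040.3 to 3323 CPM (median 3195) in control and 3228 to 3580.4 CPM (median 3335) in ethanol (log2 fold change 0.076 ± 0.023 (SE), adjusted p = 0.0114). The call was lost with a GC and length correction (0.045, adjusted p = 0.0588) and without IP control replicate 2 or IP ethanol replicate 3 (adjusted p = 0.102 and 0.0985), and in input *Eef2* was at 0.0089 ± 0.021, adjusted p = 0.867. *Eef2k* was not called in either fraction (0.062 and 0.026), nor were the methyltransferase genes *Eef1akmt1* and *Eef2kmt*.

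The E-box, the hexamer CACGTG that is known as a binding sequence of Myc with its partner Max, was counted in the promoters of the members, since several of the downregulated members are known as Myc targets. In RefSeq promoters of GRCm38.p6, 50 members were matched, and 11 (22.0%) held the hexamer in the 250 bases before the start, beside 9.0% of 12899 protein-coding genes tested. The hexamer reads the same on both strands. Among 27025 promoters it stood in 6.86%. Of 5 other motifs searched on both strands in the same windows, the ETS motif CCGGAAGT stood in 10.0% of members and 3.23% of all promoters, the NRF1 motif in 2.0% and 0.877%, the ATF4 motif TGATGNAA in 4.0% and 3.91%, CCAAT in 15 of the 50 members and 37.5% and TATAAA in 10.0% and 14.3%. The E-box stood in 5 of the 16 matched members downregulated in IP (31.2%) and in 6 of the other 34 (17.6%). The windows of 30 bases around it are shown for those 5, each on the strand of its gene, with the hexamer in capitals.
Eif4e (chr3:138527028-138527057, plus strand): ctcgccagcgacCACGTGatcacttttttt
Eif4e (chr3:138527192-138527221, plus strand): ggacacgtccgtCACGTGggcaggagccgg
Eif4a1 (chr11:69672595-69672624, minus strand): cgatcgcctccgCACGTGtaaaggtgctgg
Eif4g1 (chr16:20672661-20672690, plus strand): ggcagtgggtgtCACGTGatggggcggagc
Eif5a (chr11:69921443-69921472, minus strand): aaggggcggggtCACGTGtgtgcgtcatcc
Eif5a (chr11:69920791-69920820, minus strand): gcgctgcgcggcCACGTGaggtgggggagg
Eif3k (chr7:28981915-28981944, minus strand): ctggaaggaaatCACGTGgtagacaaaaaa
The cap-binding protein, the helicase and the scaffold of eIF4F are all among them. *Eif4e* and *Eif5a* each hold the hexamer at 2 places, and so does *Eif5a2*, which was not called with ethanol in IP. *Eef2*, which was upregulated in IP, holds it as well, and so do *Eif1b*, *Eif3f*, *Eif4h*, *Eif5a2* and *Eef2k*, which were not called with ethanol in IP. A match is a stretch of letters and no measured binding. The shares of 5 of 16 and 6 of 34 were not compared by a test. The part of Myc in the decreases was not tested either. Of the 7 genes for Myc and its partners 3 were upregulated and 1 downregulated in IP, and 1 and 2 in input. *Myc* was downregulated in both fractions (-0.17 ± 0.037, adjusted p = 0.000376 in IP and -0.21 ± 0.044, adjusted p = 4.64e-05 in input) and *Mxi1*, a repressor that pairs with Max, upregulated (0.18 ± 0.031, adjusted p = 3.70e-06 in IP and 0.21 ± 0.031, adjusted p = 1.08e-09 in input).

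Other gene groups that moved with ethanol are given as values beside these results. All 16 genes of the list for S and G2/M phase were downregulated in both fractions, with a median of -0.26 in IP and -0.36 in input, among them *Mcm3* (-0.41 ± 0.038, adjusted p = 7.09e-13 in IP) and *Top2a* (-0.53 ± 0.047, adjusted p = 5.81e-26 in input). The summed level of the list was 294 to 314 CPM in IP control and 244 to 258 in IP ethanol, and its part in the decreases of the translation factors was not tested. *Acta2*, listed as a marker of mural cells, was lower with ethanol (-0.56 ± 0.040, adjusted p = 7.24e-08 in IP). It was the only one called of the 6 tested endothelial and mural markers, which summed to 1619 to 1753 CPM in IP control and 1044 to 1241 in IP ethanol. *Acta2* alone made up most of this sum, with a mean of 1589 CPM in IP control and 1069 in IP ethanol. It was higher in IP than in input (0.43 ± 0.033, adjusted p = 1.29e-09). Microglia markers summed to 24.7 to 28.2 and 28.1 to 31.6 CPM, with 2 of 8 upregulated, and of 10 astrocyte markers 4 were upregulated and 1 downregulated in IP. Of the mTORC1 and S6 kinase genes 1 of 16 was upregulated and 1 downregulated in IP, and of the initiation partners 6 of 20 were upregulated and 2 downregulated, led by *Pabpc1* (0.11 ± 0.022, adjusted p = 4.71e-05). Termination factors had 3 of 8 downregulated in each fraction, with *Etf1*, which reads the stop codon, at -0.13 ± 0.025, adjusted p = 5.24e-05 in IP. The mitochondrial translation factors had 1 of 10 downregulated in IP and 2 in input.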

How the data were processed

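After trimming (Trimmomatic) and alignment to GRCm38 (STAR), the authors deposited raw counts, the number of read pairs on each gene in each library, neither normalized nor pooled. Versions are not given in the sources used here. Libraries were made from rRNA-depleted total RNA with a stranded kit. The table of unstranded counts was used, and it equalled the counts of the single libraries (0 differing values). Pairs that map to several genes or places were left out at counting, on average 5.44 to 5.58% and 2.99 to 4.73% of the pairs of a group, and 2.56 to 3.44% lay on no gene. Those mapping to several places were 4.65 and 4.73% in input control and ethanol, and 3.13 and 2.99% in IP control and ethanol. The part of this difference in IP vs. input was not tested. The deposited tables hold no fold changes or p-values.

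CPM (TMM), log2 fold changes (IP over input and ethanol over control) and tests were computed with edgeR 4.0.16 in R 4.3.3 (estimateDisp, glmQLFit with robust estimation, glmQLFTest) over the 24495 genes with at least 10 read pairs summed over the libraries, with Benjamini-Hochberg adjustment over all of them and a threshold of 0.05. The SE is the absolute log2 fold change divided by the square root of F. IP vs. input used 18 libraries with a term for treatment, ethanol 12 IP, 6 input or 6 IP libraries of the dishes with input, and the interaction all 18. DESeq2 1.42.0 was run beside it. The script was tested on simulated data. Input and IP libraries of a dish pair by label. The correlation of deviations was 0.036 to 0.17 (mean 0.085) within dishes and -0.13 to 0.099 (mean -0.017) between dishes. Control and ethanol dishes share only a replicate number. GC and length corrections used a spline with 4 degrees of freedom on log2 CPM (pseudocount 2).

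The members follow from their symbols. Values per library are given for 18 members set by role and for the 4 largest increases and decreases of each comparison with a mean of at least 5 CPM. Genes that are no members were named by the smallest adjusted p of their list (at most 3). The members, the lists and the rule were chosen with earlier results of these data known. Lists came from general knowledge. Levels between genes are per kilobase of the longest GENCODE M21 transcript. Transcript starts came from GENCODE M21 and promoters from RefSeq. The sequence of 1 transcript start is not reported here, and no protein sequences were used here.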

Additional observations from a re-analysis of the deposited data

Results flagged for a closer look

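In 4 of 124 groups of 6 IP libraries (62 members with at least 1 CPM, control and ethanol), 1 library stood apart from the other 5 by Dixon's test, where chance gives about 1 in 20, or 6.2. *Eef1b2* was at 300.3 CPM in IP control replicate 4 and at 276 to 285 CPM in the others. *Eif2b1* was at 34.4 CPM in IP control replicate 6 and at 36.3 to 37.4 CPM in the others. *Eif4b* was at 649 CPM in IP control replicate 2 and at 685 to 704 CPM in the others. *Eif4h* was at 329 CPM in IP ethanol replicate 3 and at 314 to 319 CPM in the others.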

How the results depend on the processing

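The number of members called stayed within 1.5 times of the values above under DESeq2, total counts in place of TMM, no filter on low counts, the counts of 1 strand and the GC and length corrections. The counts in this section stand without the share of all genes under each setting, so they describe the members alone. Leaving out 1 library gave 46 to 50 members for IP vs. input, 22 to 28 for ethanol in IP, 16 to 21 in input, 17 to 21 in the limited IP libraries and 0 for the interaction. A test against a fold change of 1.2 called 15 members for IP vs. input, 0 for ethanol in IP, 0 in input and 0 in the limited IP libraries, so the ethanol calls rest on small changes. With the dish as a block the pairing gave 45 members for IP vs. input (22 higher and 23 lower) and 0 for the interaction, also with GC and length correction. Beside *Eif2ak4* and *Eif4ebp2*, the calls of *Eif2b1*, *Eif4g2* and *Eif5* were lost with this block, that of *Eif2ak1* was gained, and no other call changed. The replicate number as a block between control and ethanol dishes, which share only a number (correlations 0.038 to 0.071 in input and -0.12 to 0.30 in IP), gave 28 members in IP, 23 in input and 28 in the limited IP libraries. Pairs of unlike number had correlations of -0.076 to 0.035 in input and -0.29 to 0.27 in IP. A GC and length correction over all libraries, chosen after seeing the data together with the comparisons in control and ethanol dishes alone, reversed *Eif4e* to 0.095 (adjusted p = 1.45e-05), *Eef2k* to -0.092 (adjusted p = 0.000279), *Eif4ebp2* to -0.048 (adjusted p = 0.0151) and *Eif2s1* to 0.12 (adjusted p = 8.06e-08) in IP vs. input, and the cause was not tested. Over all 65 members it changed the sign of 9, also of *Eif5*, *Eif1*, *Eif2s3x*, *Eif4b* and *Eif3j2*, and ended 5 calls. With the summed length of all exons in place of the longest transcript, 14 of 18 levels per kilobase moved by more than their spread, and the rank of a member changed by at most 10 of 65 places. Depth limits the 3 members under 1 CPM, and for the others the spread between dishes sets the precision.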
